A study of Mus musculus with 20 samples.

Results

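The mitochondrial respiratory chain and the ATP synthase were followed in RNA of the mouse abdominal aorta. Members were the genes whose symbol starts with Nduf, Uqcr or Atp5, the Sdha, Sdhb, Sdhc and Sdhd genes, Cyc1, the Cox4 to Cox8 subunits other than Cox7a1 and Cox8b, and the mt-Nd, mt-Co, mt-Atp and mt-Cytb genes. Of 119 annotated genes that meet this rule, 109 had at least 1 transcript listed in both the WT and the KO Ang II tables, out of 14583 such genes in all. They were 81 nuclear protein-coding subunits, 13 mitochondrially encoded subunits, 8 complex I assembly factors and 7 pseudogenes or non-coding models. Of the 10 others, 4 were protein-coding: Cox7b2, Ndufa13, Cox8c and a second gene model of Atp5o.

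The series holds 4 groups of 5 libraries: wild-type (WT) mice infused with saline, WT mice infused with Ang II at 500 ng/kg/min, and libraries labelled KO with the same 2 infusions. Ang II, or angiotensin II, is a vasoconstrictor peptide, and DAPK1, named in the series title, is a protein kinase regulated by calcium and calmodulin. The labels give no strain, sex or age, no length of infusion and no account of how the KO was made. They name no animal for a library either, so p-values measure the spread between these samples, which may be technical. Libraries are called by their titles, WTNS_369, WTNS_373, WTNS_523, WTNS_547 and WTNS_550 for WT saline, WTAng_II519, WTAng_II536, WTAngII568, WTAngII580 and WTAngII581 for WT Ang II, and KOAng_II402, KOAngII537, KOAngII560, KOAngII612 and KOAngII628 for KO Ang II. Wherever a group's 5 values follow each other below, they stand in that order. Which part of Dapk1 was deleted is not stated, and its level did not check the KO label: it ran from 0.514 to 9.46 FPKM in KO Ang II libraries, against 3.96 to 19.9 for WT Ang II and 9.48 to 15.4 for WT saline. The 5 KO saline libraries are described as WT in 1 label and as KO in their titles, and their table lists 2025 transcripts, of which 1337 are Ensembl ones, while the other tables share 31007. They enter no test.

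Oxidative phosphorylation passes electrons from NADH through complex I, or from succinate through complex II, to complex III, cytochrome c and complex IV, which reduces oxygen. The protons pumped on the way drive ATP synthase, often called complex V. Most subunits are coded in the nucleus and imported, while a small core of complexes I, III, IV and V is coded in mitochondrial DNA, and complex II is coded wholly in the nucleus. The chain is particularly abundant in brown adipocytes, where the uncoupling protein Ucp1 lets protons return without making ATP. Brown fat can surround the aorta.

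Levels are in FPKM (fragments per kilobase of transcript, scaled for depth), added up over the shared transcripts of each gene. Tests used limma on log2(FPKM + 1) over the 15 libraries outside the KO saline group, with p adjusted by Benjamini-Hochberg over 12546 genes with a mean of at least 1 FPKM. Of the subunits, 80 nuclear and all 13 mitochondrially encoded ones passed that filter, while the nuclear subunit Atp5s, with a mean of 0.681 FPKM, did not.

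Some facts touch every result. Library depth, estimated from the spacing of low values, was 62.8 to 67.0 megareads for WT saline and 59.0 to 74.5 for WT Ang II. It was 70.2 to 73.5 for KO Ang II, above every WT saline library, and 69.7 to 74.8 for KO saline. WTAngII580 and WTAngII581, at 74.5 and 69.4 megareads, lay above the other WT Ang II libraries, of which WTAngII568 had 67.8. The part of depth in the results was not tested. The 10 smooth muscle markers were high throughout, summing to at least 6710.3 FPKM in each library. The 10 brown adipocyte markers with a shared row summed to 577 to 3183 FPKM for WT saline, 147 to 2431 for WT Ang II and 358 to 2450.2 for KO Ang II, and the developmental markers Lhx8 and Zic1 had no shared row. White adipocyte markers, 10 genes, summed to 1557 to 4865, 1021 to 4318 and 1791 to 4870.1 FPKM in the same order of groups. Skeletal muscle markers, another cell type rich in mitochondria, summed to 6.24 to 293, 9.46 to 223 and 11.3 to 55.6 FPKM, while Myh1, Myh2 and Myh4 had no shared row. Intestinal markers summed to 4.46 to 8.58, 7.24 to 38.0 and 31.3 to 66.8 FPKM; 6 of the 8 with a shared row, among them Zg16, were at 0 throughout WT saline. In bulk tissue, fewer cells of a type and less RNA per cell cannot be told apart.

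Subunit transcripts were abundant. Of the FPKM summed over all genes with a shared transcript, the 80 nuclear subunits made up 1.47% to 2.86% in a library. The 13 mitochondrially encoded ones made up 10.5% to 27.8%. The median nuclear subunit had a mean level of 88.6 FPKM, against 6.77 for the median gene tested. Atp5b, the catalytic beta subunit of ATP synthase (chromosome 10, 128083273 to 128090391, plus strand, GRCm38), had the highest mean level of the nuclear members, 595 FPKM. Cox6a1, a subunit of cytochrome c oxidase (complex IV), followed with 387.4 FPKM, then Cox4i1, the common form of the complex IV regulatory subunit, with 325, and Atp5a1, the alpha subunit of ATP synthase, with 315. Of the complex I genes, Ndufa4, a protein now usually counted with complex IV, had a mean of 179 FPKM and Ndufb9, an accessory subunit, 149. Complex II was led by its flavoprotein Sdha at 205 FPKM and the membrane anchor Sdhd at 121, and complex III by the accessory subunits Uqcrh at 206 and Uqcrb at 174.

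Levels differed widely between libraries of 1 group. The nuclear subunits added up to 9058, 13098, 7049, 6391 and 8708 FPKM in the WT saline libraries. The WT Ang II libraries had sums of 5175, 6949, 6094, 12262 and 6324 FPKM, and the KO Ang II libraries 11906, 10579, 6289.6, 7536 and 11470.4 FPKM. WTNS_373 and WTAngII580 stood far above the rest of their groups, and all 3 groups overlapped. Group means of the sum were 8861 ± 2617 FPKM for WT saline, 7361 ± 2813 for WT Ang II and 9556 ± 2499 for KO Ang II (SD, n = 5 each), so the means lay closer together than 1 SD of any group.

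**Figure D1:**
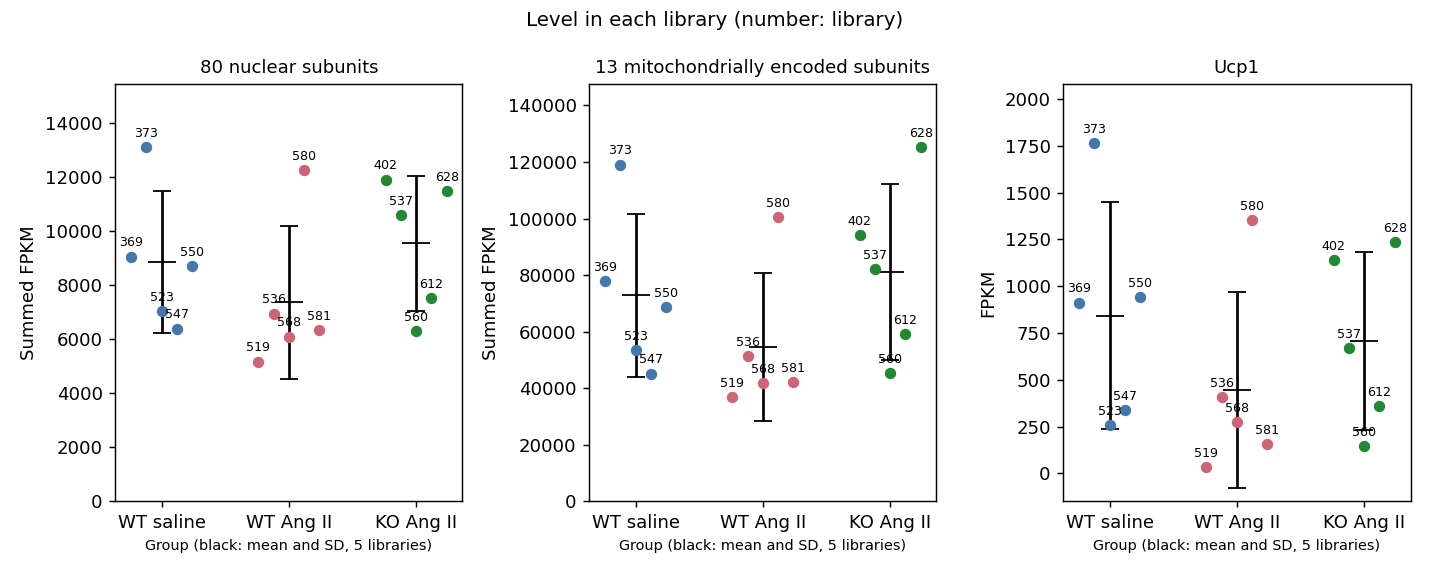
Summed FPKM of 80 nuclear subunits (left), of 13 mitochondrially encoded subunits (middle) and FPKM of Ucp1 (right), 1 point per library with the number in its title; black marks are group means with SD (n = 5). WTNS_373, WTAngII580, KOAng_II402 and KOAngII628 are high in all 3 panels, and WTAng_II519 is lowest in each.

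Single subunits repeated this order of libraries. WTNS_373 held the highest WT saline value of 71 of the 80 nuclear subunits and WTNS_547 the lowest of 51. Among WT Ang II libraries, WTAngII580 held the highest value of 72 and WTAng_II519 the lowest of 52. KOAng_II402 was the highest KO Ang II library for 43 and KOAngII628 for 28, and KOAngII560 was the lowest for 66. Sdha (chromosome 13, 74322254 to 74350280, minus strand) shows the pattern. Its levels were 228, 319, 149, 151 and 209.5 FPKM in WT saline, 95.4, 156, 129, 321 and 133 with Ang II in WT, and 318, 269, 139.6, 160.4 and 302 with Ang II in KO. The lowest and the highest of the 15 Sdha values were both from WT Ang II libraries, WTAng_II519 and WTAngII580.

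The mitochondrially encoded subunits ordered the libraries nearly alike. They added up to 77912, 119049, 53438, 45174 and 68789.7 FPKM in WT saline, to 36913, 51334, 41736, 100493 and 42127 with Ang II in WT, and to 94056, 82078, 45394, 59020.2 and 125164 with Ang II in KO. KOAngII628 had the highest sum and WTAng_II519 again the lowest. The ratio of the mitochondrially encoded to the nuclear sum averaged 8.05 ± 0.805 for WT saline, 7.25 ± 0.598 for WT Ang II and 8.32 ± 1.47 for KO Ang II (SD, n = 5 each). Its ranges, 7.07 to 9.09, 6.66 to 8.20 and 7.22 to 10.9, overlapped, and the ratio was not tested. The mitochondrially encoded sum includes mt-Atp6 and leaves out the chromosome 1 copies described below. It is therefore uncertain where reads could be split between a gene and its copy.

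On the log2(FPKM + 1) scale, the SD over the 15 libraries had a median of 0.47 over the nuclear subunits and 0.59 over the mitochondrially encoded ones, against 0.36 over all genes tested. By complex, the nuclear median SD was 0.45 for complex I, 0.59 for complex II, 0.58 for complex III, 0.47 for complex IV and 0.45 for complex V. Complexes II and III were thus the most variable between libraries by this measure.

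The first comparison, WT Ang II minus WT saline, addresses the effect of the Ang II infusion. No subunit changed past the adjusted threshold, and neither did any other of the 12546 genes (0.0% called by limma, smallest adjusted p 0.065). At an unadjusted p under 0.05 no subunit was called either, where 4.96% of all genes were, 3.29% with higher and 1.67% with lower levels. No subunit had WT Ang II values all above or all below the WT saline values, against 0.717% and 0.311% of all genes. The fitted difference was negative for 74 of 80 nuclear and 12 of 13 mitochondrially encoded subunits, with medians of -0.26 and -0.40 (log2) against 0.022 over all genes tested. Members share their libraries and vary together in them, so these counts of signs are not independent observations.

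By complex, the median log2 difference of the nuclear subunits in this comparison was -0.26 for complex I, -0.38 for complex II, -0.40 for complex III, -0.22 for complex IV and -0.18 for complex V. All 4 complex II and all 9 nuclear complex III subunits had negative values, and none passed. Ndufc1, a small accessory subunit of complex I (chromosome 3, 51404677 to 51408988, minus strand), had the smallest p of the subunits. Its levels were 11.1, 39.5, 21.3, 18.2 and 22.2 FPKM in WT saline and 8.16, 16.3, 7.85, 26.4 and 9.42 FPKM with Ang II in WT. WTAng_II519, WTAngII568 and WTAngII581 lay below all WT saline libraries, and WTAng_II536 and WTAngII580 within them. The Ndufc1 difference was -0.72 on the log2 scale (SE 0.34, limma adjusted p = 0.94). For Atp5b, the most abundant nuclear member, it was -0.45 with a 95% interval from -1.13 to 0.23.

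**Figure D2:**
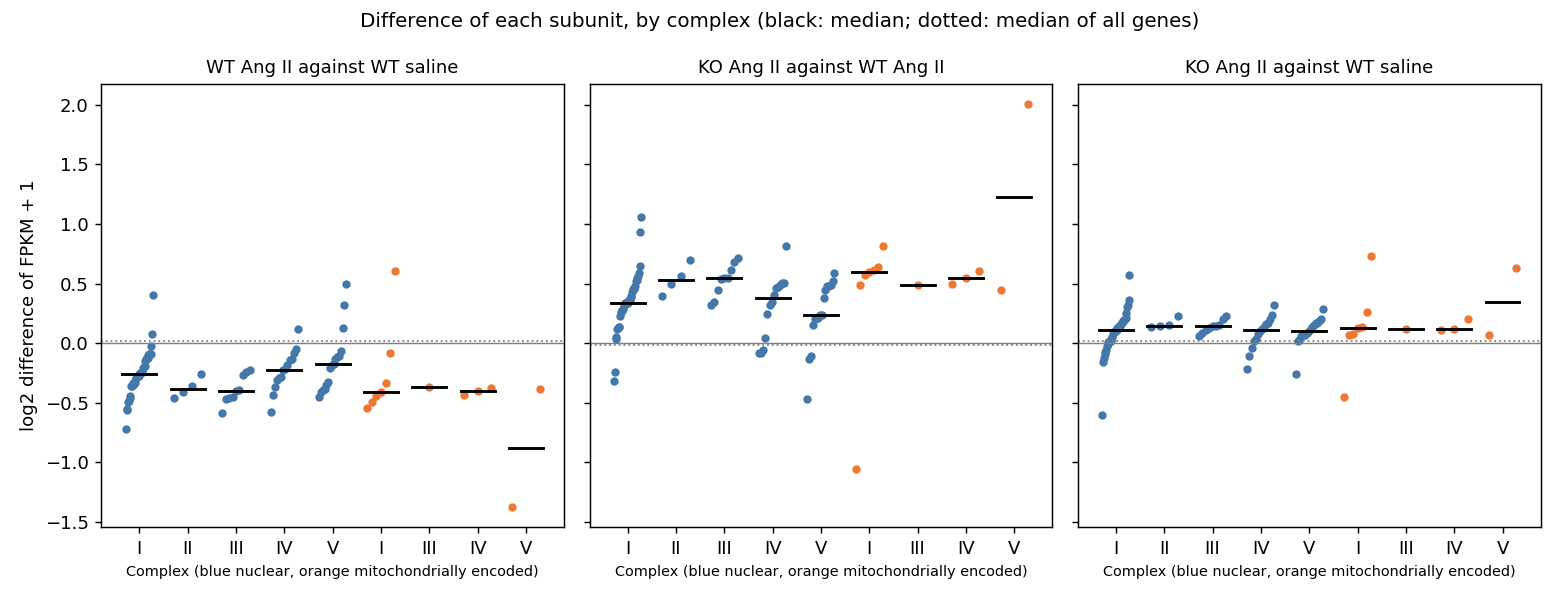
Fitted log2 difference of FPKM + 1 of each of the 93 subunits (points; blue nuclear, orange mitochondrially encoded) by complex in the 3 comparisons, with the median of each complex in black and the median of all genes dotted. Most points lie below 0 in WT Ang II against WT saline and above 0 for KO Ang II against WT Ang II; no subunit passed the adjusted threshold in any of the 3.

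The second comparison, KO Ang II minus WT Ang II, addresses what the KO label changes under Ang II. It uses the same WT Ang II libraries as the first, so the 2 results are not independent of each other. No subunit passed the adjusted threshold, and no gene did (0.0% called, smallest adjusted p 0.33 by limma). At an unadjusted p under 0.05, 3 of 80 nuclear subunits were higher and 0 lower, where 7.1% of all genes were called, 2.93% higher and 4.18% lower. The 3 were Ndufc1, Cox5a of complex IV and Atp5c1, the gamma subunit in the rotating stalk of ATP synthase. Of the 13 mitochondrially encoded subunits, mt-Atp6 was higher and mt-Nd2 lower at that level. No subunit had groups that did not overlap, against 0.383% of all genes above and 0.502% below. The fitted difference was positive for 72 of 80 nuclear and 12 of 13 mitochondrially encoded subunits, with medians of 0.37 and 0.57 (log2) against -0.015 over all genes.

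Complex by complex, the median log2 difference of the nuclear subunits between KO and WT under Ang II was 0.34 for complex I, 0.53 for complex II, 0.55 for complex III, 0.38 for complex IV and 0.24 for complex V. Ndufc1 levels with Ang II in KO were 27.5, 22.4, 19.0, 21.5 and 32.7 FPKM, a range that only WTAngII580 of the WT Ang II libraries reached. Its difference was 0.93 (SE 0.34, limma adjusted p = 0.67). Cox5a differed by 0.81 (SE 0.37) and Atp5c1 by 0.49 (SE 0.21) on the log2 scale, each with a limma adjusted p of 0.67. The Sdha difference was 0.56 (SE 0.33), with a 95% interval from -0.15 to 1.27 that includes 0.

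These medians rested in part on single libraries. Without WTAngII580, the nuclear median was -0.45 in WT Ang II minus WT saline and 0.56 in KO minus WT under Ang II. Then 28 and 47 of the 80 nuclear subunits had an unadjusted p under 0.05, where 9.01% and 14.7% of all genes did, and still no subunit passed the adjusted threshold. Without WTNS_373 the first of the 2 medians was -0.14, and without WTAng_II519 it was -0.17. The mitochondrially encoded median of WT Ang II minus WT saline was -0.62 without WTAngII580 and -0.18 without WTNS_373. Sample quality weights raised the nuclear median of the second comparison to 0.59. With them 58 of 80 nuclear and 12 of 13 mitochondrially encoded subunits had an unadjusted p under 0.05, where 20.8% of all genes did, and none passed the adjusted threshold (smallest limma adjusted p 0.15). Quantile normalization brought the mitochondrially encoded medians nearer to 0, at -0.10 and 0.15. It gives each rank the same value in every library, which limits changes of the most abundant genes by construction. Intestinal transcripts moved with the KO label too: all 7 tested markers had positive differences, 6 at an unadjusted p under 0.05. Zg16 was at 1.82 FPKM in WTAngII580, at 1.32 FPKM in WTAngII581 and listed at 0 in the other 3 WT Ang II libraries. Set against only these 2, the KO Ang II libraries had a nuclear median of 0.069. Set against WT saline, the 3 WT Ang II libraries without Zg16 had a nuclear median of -0.45, with 25 of 80 subunits at an unadjusted p under 0.05, where 8.72% of all genes were, and none past the adjusted threshold. Leaving out WTAngII580 alone gave -0.45 too. That library is 1 of the 2 with Zg16, so intestinal transcripts and this single library cannot be told apart here.

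Brown adipocyte markers moved with both results. Their median log2 difference was -0.98 in WT Ang II minus WT saline, with 9 of 10 negative, and 0.99 in KO minus WT under Ang II, with 10 of 10 positive; none passed the adjusted threshold. Smooth muscle markers had medians of 0.27 and -0.44. Sympathetic neuron markers had a median of -1.22 in the first comparison, 9 of 10 negative, and 2.01 in the second, 9 of 10 positive. Macrophage markers had medians of 0.58 and -0.21; in the first comparison all 10 were positive, 7 at an unadjusted p under 0.05. Medians were -1.03 and -0.70 for skeletal muscle, -0.11 and 0.48 for white adipocytes and -0.14 and 0.69 for Schwann cells, the last 2 lists with every marker positive in the second comparison. No marker of these lists passed the adjusted threshold, and their part in the subunit medians was not tested. With the mean of 8 brown adipocyte markers as a covariate, Cox7a1 and Cox8b being left out of it, the nuclear subunit median became 0.11 in the first comparison and 0.039 in the second, and the mitochondrially encoded median 0.087 and 0.11. Whether the markers stand for the number of brown adipocytes or for their state was not tested.

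In the third comparison, KO Ang II minus WT saline, no subunit passed, while 11 genes did (0.0877% called by limma); 5 of the 11 were intestinal markers. No subunit had an unadjusted p under 0.05, where 7.45% of all genes did, 3.48% with higher and 3.97% with lower levels. None had groups that did not overlap, against 0.709% of all genes above and 0.829% below. The median log2 difference was 0.12 for nuclear and 0.12 for mitochondrially encoded subunits, against 0.016 over all genes, with 68 of 80 and 12 of 13 positive. Nuclear medians were 0.11 for complex I, 0.15 for complex II, 0.15 for complex III, 0.11 for complex IV and 0.099 for complex V. Without WTNS_547, 48 of 80 and 4 of 13 were positive, and the mitochondrially encoded median was -0.027. Without KOAngII628, 51 and 4 were, with a mitochondrially encoded median of -0.055. That median was 0.36 without WTNS_373, 0.29 without KOAngII560, 0.22 without KOAngII612, 0.022 without WTNS_523 and 0.048 without KOAng_II402. Leaving out 1 library at a time moved the nuclear median between 0.022 without WTNS_547 and 0.26 without KOAngII560; it was 0.040 without WTNS_523, 0.028 without KOAng_II402, 0.069 without KOAngII537, 0.036 without KOAngII628, 0.19 without KOAngII612 and 0.26 without WTNS_373. Ndufa3, an accessory complex I subunit, had the smallest p of the subunits, with a difference of -0.60 (SE 0.36, limma adjusted p = 0.77). Its level was 10.1 FPKM in KOAngII628 and 29.3 to 75.8 FPKM in the other 14 libraries. Without KOAngII628 the Ndufa3 difference was -0.20. With the brown adipocyte marker mean as a covariate, the nuclear median of this comparison was 0.15 and the mitochondrially encoded one 0.17. In that fit 6 of 80 nuclear and 0 of 13 mitochondrially encoded subunits had an unadjusted p under 0.05, where 9.93% of all genes did. None passed the adjusted threshold (smallest limma adjusted p 0.22).

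The subunits ran with the brown adipocyte markers from library to library. Ranked by the nuclear subunit sum, the first 4 libraries were WTNS_373, WTAngII580, KOAng_II402 and KOAngII628. The same 4 ranked first by Ucp1, with 1765, 1352, 1139 and 1235 FPKM, and WTAng_II519, with 32.4 FPKM of Ucp1, was last by both. In a limma model with the group and the mean log2(FPKM + 1) of the 8 markers as terms, the slope of a gene is its log2 change per unit of that mean within groups. This use of the model was added after the data had been seen. The slope was positive past the adjusted threshold for 65 of 80 nuclear and 11 of 13 mitochondrially encoded subunits, against 6.66% of all genes, and negative past it for 1 nuclear subunit, against 5.3% of all genes. Leaving out 1 library at a time gave 56 to 66 nuclear subunits with a positive slope past the adjusted threshold, the 56 without WTAngII580. Under quantile normalization, 65 nuclear but only 4 of 13 mitochondrially encoded subunits passed with a positive slope. There the slope of mt-Atp6 had a limma adjusted p of 0.057. The 6.66% belongs to the main fit, and the share of all genes in these other fits is not given here.

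**Figure D3:**
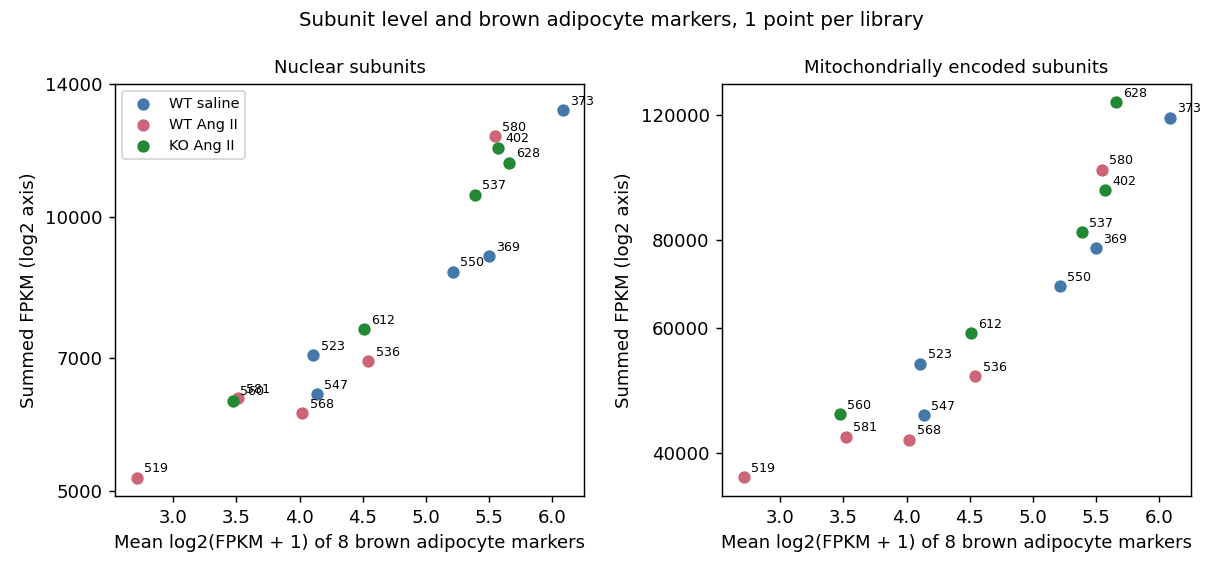
Summed FPKM of nuclear (left) and mitochondrially encoded (right) subunits, on log2 axes, against the mean log2(FPKM + 1) of 8 brown adipocyte markers, 1 point per library, coloured by group and numbered by title. Libraries of the 3 groups follow 1 course, with WTAng_II519 at the lower left and WTNS_373 farthest to the right.

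Each of the 5 complexes held subunits with a positive slope past the threshold. The median slope of the nuclear subunits was 0.39 for complex I, 0.58 for complex II, 0.56 for complex III, 0.41 for complex IV and 0.36 for complex V, against -0.041 over all genes tested, and that of the mitochondrially encoded ones was 0.53. All 4 subunits of complex II and all 9 nuclear subunits of complex III passed, as did 30 of 37 in complex I, 10 of 14 in complex IV and 12 of 16 in complex V. Uqcrfs1, the Rieske iron-sulphur protein of complex III, had the highest slope of the nuclear subunits, 0.71 (SE 0.061). Cox5b and Cox5a of complex IV had slopes of 0.66 (SE 0.072) and 0.63 (SE 0.061), Sdhd one of 0.62 (SE 0.055) and Cyc1, the cytochrome c1 of complex III, one of 0.60 (SE 0.046). Other lists lay along the same axis: 5 of 10 white adipocyte markers had a positive slope past the threshold, 9 of 10 smooth muscle markers a negative one, and 0 of 9 skeletal muscle markers either. FPKM are relative to the library, and how far the slopes follow from a smaller share of other RNA was not tested.

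**Figure D4:**
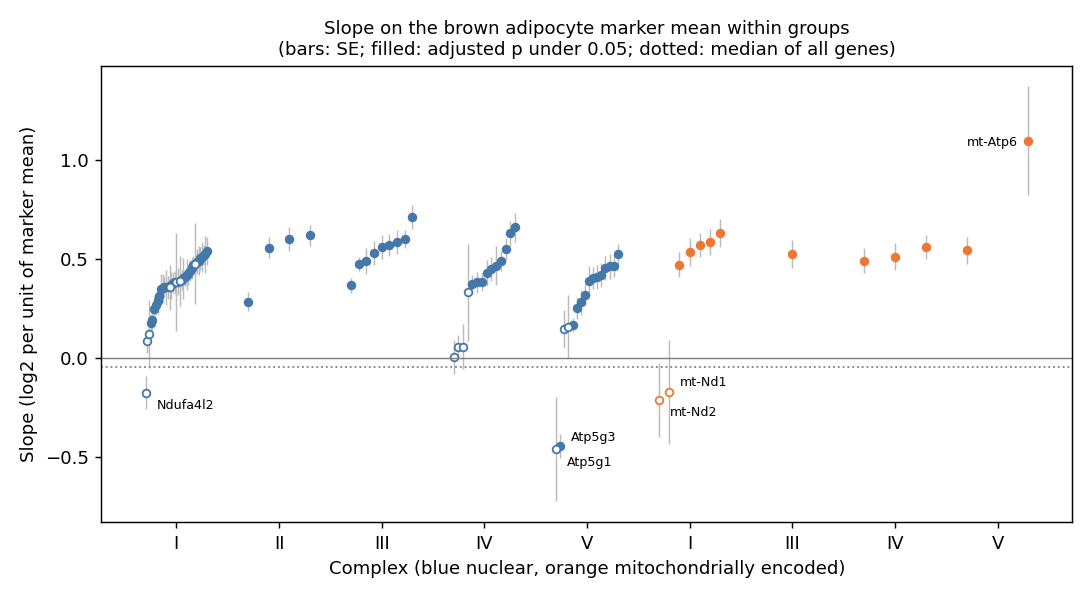
Slope of each of the 93 subunits on the brown adipocyte marker mean within groups, by complex (blue nuclear, orange mitochondrially encoded), with SE bars; filled points have an adjusted p under 0.05 by limma, and the dotted line is the median of all genes at -0.041. Nuclear subunits of complexes II and III are all filled and positive, and Atp5g3 is the filled point below 0.

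Isoforms of 1 subunit had slopes of different sign. The c-ring of ATP synthase, the rotor that turns as protons pass, is built from 1 mature protein coded by 3 genes, Atp5g1, Atp5g2 and Atp5g3, which differ in the import peptide that is cut off. Atp5g3 (chromosome 2, 73908447 to 73911326, minus strand) was the nuclear subunit with the negative slope. Its levels were 65.5, 49.1, 113, 90.9 and 69.9 FPKM in WT saline, 124, 77.5, 73.5, 52.7 and 95.7 with Ang II in WT, and 59.0, 92.3, 120.2, 73.9 and 50.7 with Ang II in KO. WTNS_373, KOAngII628, WTAngII580 and KOAng_II402, the libraries with the highest nuclear sums, had the 4 lowest Atp5g3 levels. The Atp5g3 slope was -0.44 (SE 0.061, limma adjusted p = 0.00038). Atp5g2 had the smallest SD of the nuclear subunits on the log2(FPKM + 1) scale, with levels from 69.6 to 114 FPKM, and a slope of 0.17 (SE 0.035) that passed. Atp5g1 ranged from 2.24 FPKM in WTNS_373 to 48.1 FPKM in KOAngII612, with a slope of -0.46 (SE 0.26) that did not. None of the 3 differed between groups past the threshold, with limma adjusted p of 0.67 or more.

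In other isoform pairs the more abundant form had a slope that passed. Cox4i1 had a slope of 0.47 (SE 0.098), while Cox4i2, the alternative form known from lung, had a mean level of 2.41 FPKM and a slope of 0.058 (SE 0.11) that did not pass. Cox6a1 had a slope of 0.49 (SE 0.051). Its striated-muscle counterpart Cox6a2 was listed at 0 in WTNS_547 and reached 7.84 FPKM in WTAngII580, the WT Ang II library with the highest skeletal muscle marker sum. Cox7a2 had a slope of 0.37 (SE 0.047), and the related Cox7a2l, a factor of respiratory supercomplex assembly, one of 0.057 (SE 0.059) that did not pass. Ndufa4 had a slope of 0.35 (SE 0.070), and its hypoxia-inducible relative Ndufa4l2 one of -0.17 (SE 0.084) that did not pass either. Whether the slopes within a pair differ was not tested. Cox7a1 and Cox8b, forms of brown fat and muscle that the rule leaves out, had slopes of 1.28 (SE 0.058) and 1.08 (SE 0.057); both are among the 10 brown adipocyte markers.

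Promoters are shown because so many members rise and fall together between libraries. RefSeq windows (GRCm38.p6) from 250 bases before to 50 after the start were matched for 64 of the 80 nuclear subunits, in 69 windows. The sequence known to be bound by the factor NRF1, searched as GCGC, any 1 base and TGCGC on both strands, was in 26.1% of member windows, 4.6% of all windows and 9.71% of windows of tested genes. CCGGAAG, a core bound by ETS factors, was in 23.2% of member windows, 8.86% of all windows and 17.4% of windows of tested genes on either strand. For AAGATGGCG, bound by YY1, the shares were 10.1%, 1.40% and 3.0%, and for TCAAGGTCA, bound by oestrogen-related receptors (ERR), 2.90%, 0.423% and 0.242%. The ERR matches were in the windows of Atp5g3 and Sdhd, 1 with a negative and 1 with a positive slope. A match describes these letters only. For 1 subunit each of complexes I, II, IV and V, 80 bases around an NRF1 match read as follows, 5′ to 3′ on the coding strand, with the match in capitals:
Ndufs5 (chr4:123718240-123718319, minus strand): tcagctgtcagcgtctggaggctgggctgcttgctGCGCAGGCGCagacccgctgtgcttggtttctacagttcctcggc
Sdha (chr13:74350294-74350373, minus strand): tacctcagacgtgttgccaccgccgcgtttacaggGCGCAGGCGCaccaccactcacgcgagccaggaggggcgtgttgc
Cox6a1 (chr5:115349076-115349155, minus strand): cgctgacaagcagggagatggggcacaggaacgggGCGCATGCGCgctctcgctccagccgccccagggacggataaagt
Atp5h (chr11:115420016-115420095, minus strand): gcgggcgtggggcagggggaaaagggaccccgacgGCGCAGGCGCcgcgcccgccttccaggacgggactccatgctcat
The capitals begin 98 bases before the start in Ndufs5 and in Sdha, 162 in Cox6a1 and 141 in Atp5h. Slopes were 0.41 for Ndufs5, an accessory complex I subunit, 0.56 for Sdha, 0.49 for Cox6a1 and 0.25 for Atp5h, the stator subunit d of ATP synthase. The window of Atp5g3, with its negative slope, held an NRF1 match too. Windows of Uqcrfs1, Cox5b and Cox5a, with the highest nuclear subunit slopes given above, held none. Whether slopes differ between members with and without a match was not tested.

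Several mitochondrially encoded subunits have copies on chromosome 1 that the deposited tables list beside them. Gm10925, Gm28661, Gm28437, Gm28438 and Gm10222 share nearly all of the sequence of mt-Atp6, mt-Co2, mt-Co3, mt-Nd3 and mt-Nd4l, while Gm28439 and Gm29216 match part of mt-Nd4 and mt-Co1. Values of these genes are uncertain, since reads could be split between a gene and its copy. The level of mt-Co2 was 104% to 107% of that of Gm28661 over the 15 libraries, a steady ratio. For mt-Nd4l and Gm10222 it was 248% to 283% in WT saline and 309% to 333% with Ang II in KO. With Ang II in WT it was 252%, 250.3%, 271%, 311% and 313%, so WTAngII580 and WTAngII581 lay with the KO Ang II libraries. These 2 are also the WT Ang II libraries with Zg16, and the cause was not tested. The pair of mt-Atp6, the proton-channel subunit a of ATP synthase (mitochondrial genome, 7927 to 8607, plus strand), and Gm10925 (chromosome 1, 24613974 to 24614651, minus strand) had no steady ratio. Over 678 bases the 2 had 0 mismatches. Their first 60 bases are shown to make the identity visible:
mt-Atp6: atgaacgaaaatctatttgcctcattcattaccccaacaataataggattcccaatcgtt
Gm10925: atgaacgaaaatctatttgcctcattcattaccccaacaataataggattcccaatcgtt
A read from within these bases cannot be assigned to 1 of the 2.

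The level of mt-Atp6 was 85.9% to 89.7% of that of Gm10925 in 8 libraries and 17.4% to 20.1% in the other 7. These 7 were WTNS_373 and WTNS_547, WTAng_II519, WTAng_II536, WTAngII568 and WTAngII581, and KOAngII560, which is 2 of WT saline, 4 of WT Ang II and 1 of KO Ang II. In FPKM, mt-Atp6 was at 6702, 2264, 4379, 838 and 5681 in WT saline, at 653, 893, 724, 8732 and 727 with Ang II in WT, and at 8269.9, 6950.2, 909, 5247 and 10293 with Ang II in KO. The KO minus WT difference under Ang II was 2.01 for mt-Atp6 (SE 0.83, limma adjusted p = 0.67) and 0.61 (SE 0.35) for Gm10925. Summed with its copy, it was 1.01 (SE 0.46). The size of the mt-Atp6 difference thus depended on how reads fell between the 2 genes, and the cause of the split was not tested.

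**Figure D5:**
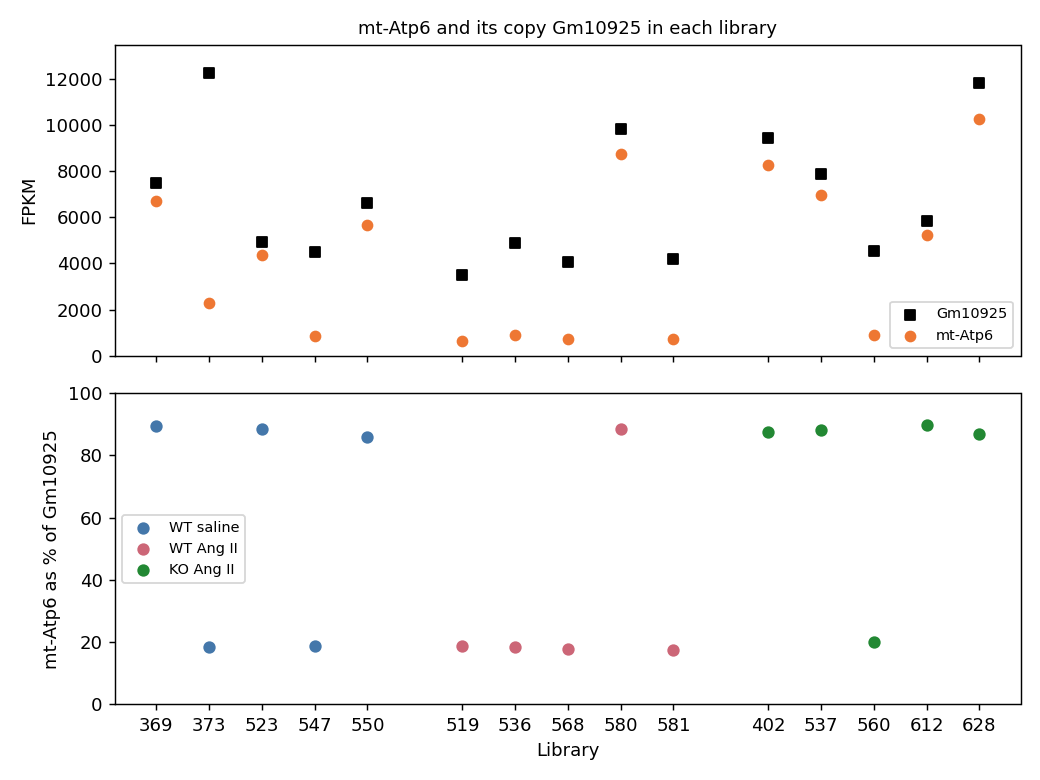
FPKM of mt-Atp6 and of its chromosome 1 copy Gm10925 in each library (top), and mt-Atp6 as a percentage of Gm10925 (bottom, coloured by group). In 8 libraries the percentage lies between 85.9 and 89.7 and in 7 between 17.4 and 20.1.

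Of the other mitochondrially encoded subunits, mt-Co1, the catalytic core of complex IV, had the highest mean level, 18107 FPKM. It was followed by mt-Cytb, the cytochrome b of complex III, at 9509 FPKM and mt-Co2 at 8066. Below them came mt-Nd4 at 5972, mt-Co3 at 5688, mt-Atp8 at 4768, mt-Nd5 at 4229, mt-Nd4l at 3721, mt-Nd6 at 3601 and mt-Nd3 at 1549.9 FPKM. This order is of values without the chromosome 1 copies, so a split of reads could change it. Gm28661 had a mean of 7646 FPKM beside mt-Co2 and Gm28437 one of 5651 beside mt-Co3, while no copy of mt-Cytb was found. The 10 genes named here, from mt-Co1 to mt-Nd3, moved closely together, with slopes on the marker mean of 0.47 to 0.63. Their differences were -0.54 to -0.33 in WT Ang II minus WT saline and 0.45 to 0.63 in KO minus WT under Ang II, none past the adjusted threshold. mt-Nd6 lies on the opposite strand from its neighbours, mt-Atp8 overlaps mt-Atp6 and mt-Nd4l overlaps mt-Nd4, and no source states a counting strand, so reads of these partners may be mixed.

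The complex I core subunits mt-Nd1 and mt-Nd2 stood apart, with mean levels of 19.4 and 65.0 FPKM. Every other mitochondrially encoded subunit had a mean of at least 1549.9 FPKM, that of mt-Nd3. Rows whose identifiers start with MERGE entered no gene sum, and whether reads of mt-Nd1 or mt-Nd2 lie in them was not tested. The levels, differences and slopes of both genes are therefore uncertain as measures of their expression. For mt-Nd2 (mitochondrial genome, 3914 to 4951, plus strand) the levels were 87.0, 39.9, 70.5, 33.8 and 49.95 FPKM in WT saline, 239.5, 92.7, 39.1, 71.1 and 56.1 with Ang II in WT, and 36.9, 47.5, 48.0, 31.4 and 31.7 with Ang II in KO. It was highest in WTAng_II519, where most subunits were lowest. Its KO minus WT difference under Ang II was -1.06 (SE 0.39, limma adjusted p = 0.67), and -0.67 without WTAng_II519. The slopes of mt-Nd1 and mt-Nd2, -0.17 (SE 0.26) and -0.21 (SE 0.19), did not pass.

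Of the members that are not subunits, Ndufaf5, an assembly factor that hydroxylates a complex I subunit (chromosome 2, 140170649 to 140203689, plus strand), had the smallest p of all members in both comparisons that involve WT Ang II. Its levels were 5.49, 6.32, 3.36, 5.05 and 3.76 FPKM in WT saline, 2.34, 2.55, 3.01, 3.56 and 4.32 with Ang II in WT, and 7.74, 5.92, 5.97, 6.53 and 5.45 with Ang II in KO. Every KO Ang II library lay above every WT Ang II library, which held for 0.383% of all genes. Ndufaf5 was named for its small p, so this is not separate evidence. The difference was 0.83 (SE 0.17), which did not pass (limma adjusted p = 0.33), and it was 0.76 to 0.92 when 1 library at a time was left out. In WT Ang II minus WT saline it was -0.47 (SE 0.17, limma adjusted p = 0.90). Its slope on the marker mean was 0.10 (SE 0.078) and did not pass. The 8 complex I assembly factors had median differences of -0.086 in that comparison and 0.12 in KO minus WT under Ang II.

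Values of the 7 pseudogenes and non-coding models are uncertain, since their reads may come from parent genes. Atp5k-ps2 differed by -0.54 (SE 0.20, limma adjusted p = 0.90) in WT Ang II minus WT saline, and Atp5l2-ps by -0.45 (SE 0.21, limma adjusted p = 0.66) in KO Ang II minus WT saline.

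Enzymes that feed the chain followed the marker mean too. The counts that follow stand beside the 6.66% of all genes with a positive slope past the threshold. Of 18 genes of pyruvate dehydrogenase and the TCA cycle, 14 had a positive slope past the threshold, with a median slope of 0.54, and their median group differences were -0.45, 0.60 and 0.16 in the 3 comparisons in the order above. Citrate synthase (Cs), the entry enzyme of the cycle, had a slope of 0.51 (SE 0.061). Of 17 electron carriers and shuttles 10 passed with a positive slope, and Cycs, which codes for cytochrome c, had one of 0.76 (SE 0.066). Of 47 assembly factors 20 passed, with a median slope of 0.22 and median differences of -0.086, 0.17 and 0.082. Of 22 regulators of mitochondrial transcription and biogenesis 5 passed, with a median slope of 0.14. Among these were Esrra, a nuclear receptor of the ERR family, with 0.69 (SE 0.15), and Tfam, which packs and transcribes mitochondrial DNA, with 0.18 (SE 0.042). The coactivator Ppargc1a, with 0.23 (SE 0.18), and the factors Nrf1, with -0.095 (SE 0.22), and Gabpa, with 0.095 (SE 0.10), did not pass. No gene of these 4 lists passed the adjusted threshold in a group comparison.

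KO saline libraries list 10 transcripts of members, and 9 of these are in the other tables too. As an example, a 510-base transcript of Atp5h is 1 of 8 shared ones of that gene, whose mean was 192 FPKM over the tested libraries. This transcript was at 1.48 ± 0.369 FPKM for KO saline, 7.59 ± 5.56 for WT saline, 1.75 ± 0.360 for WT Ang II and 9.35 ± 4.63 for KO Ang II (SD, n = 5 each). Its values ran from 2.25 to 15.6 FPKM in WT saline and from 1.57 to 13.1 in KO Ang II. They are a small part of the gene and need not follow its level. In all 9 the KO saline mean was below both the KO Ang II and the WT saline mean. Over the 976 Ensembl transcripts that all the tables list, 52.9% had a lower mean in KO saline than in KO Ang II, and 52.8% a lower one than in WT saline. In 2 of the 9 every KO saline library was below every KO Ang II library, which held for 6.05% of the 976. That table holds only part of each library, and how its rows were chosen is not stated, so these values are set side by side without a test.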

How the data were processed

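RNA of abdominal aorta was sequenced in 20 libraries, of which 15 were tested. The authors deposited FPKM per transcript. Per the submitters' processing notes, bcl2fastq, FastQC, fastp and the mm10 build were used, with aligner and quantifier not given in the sources used here. Per the labels, libraries came from a NEBNext Ultra kit. Ensembl transcripts listed in both the WT and the KO Ang II tables were named from a GRCm38 annotation and summed per gene. Rows whose identifiers start with MERGE held 12.2% to 15.8% of the FPKM of a tested library and entered no gene sum. Whether reads of members lie in them was not tested. Genes with a mean of at least 1 FPKM were tested with limma 3.58.1 (trend, robust; R 4.3.3) on log2(FPKM + 1), which understates changes of low genes. Of low values, 97.9% to 99.2% were whole reads within 0.05. Members, lists and rules were chosen with earlier results of these data known. Named were the 2 most abundant nuclear subunits per complex, every mitochondrially encoded one, the 3 members with the smallest p per comparison and isoform sets; other names were chosen after their values were seen. Alternatives were a pseudocount of 0.1, other filters and scalings, a marker covariate, library weights and leaving out libraries. The fit was tested on simulated data.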

Additional observations from a re-analysis of the deposited data

Results flagged for a closer look

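In groups of 5 libraries a value was marked where its gap to the next exceeded 0.71 of the group's range (Dixon's criterion), which chance gives in about 1 of 20 groups. It was applied to 114 sets of values and marked 21, of which 17 were in WTAngII580. Members vary together between libraries and the sums are made of members. The marks are therefore not independent, and their number cannot be set against that rate. In WTAngII580 the nuclear subunit sum was 12262 FPKM and the mitochondrially encoded sum 100493 FPKM. The nuclear subunits marked in that library were Sdha at 321, Sdhd at 204, Cox6a1 at 548, Atp5b at 894, Atp5a1 at 476, Cox7a2 at 147 and Cox6a2 at 7.84 FPKM. The mitochondrially encoded ones were mt-Co2 at 11737, mt-Atp8 at 6849, mt-Atp6 at 8732, mt-Co3 at 7697, mt-Nd4l at 5593, mt-Nd4 at 8137, mt-Nd5 at 5797 and mt-Cytb at 13487 FPKM. Ucp1 was at 1352 FPKM in that library and at 32.4 to 408 FPKM in the rest of its group. Marked elsewhere were mt-Cytb at 17877 FPKM in WTNS_373, mt-Nd2 at 239.5 FPKM in WTAng_II519, Cox7a2l at 117 FPKM in WTAng_II536 and Cox6a2 at 1.52 FPKM in KOAngII612.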

How the results depend on the processing

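No paired analysis was possible because the groups share no replicate numbers. No subunit or other member passed the adjusted threshold in any comparison under any alternative run. With the brown adipocyte marker mean as a covariate, the medians of WT Ang II minus WT saline changed sign, to 0.11 for nuclear and 0.087 for mitochondrially encoded subunits. Those of KO Ang II minus WT saline stayed positive, at 0.15 and 0.17. The cause was not tested. Leaving out 1 library at a time, nuclear medians ranged from -0.45 to -0.14 in WT Ang II minus WT saline, 0.26 to 0.56 in KO minus WT under Ang II and 0.022 to 0.26 in KO Ang II minus WT saline. Mitochondrially encoded medians ranged from -0.62 to -0.18, 0.38 to 0.76 and -0.055 to 0.36; the last was negative without WTNS_547 (-0.027) or KOAngII628 (-0.055). Positive slopes past the adjusted threshold numbered 56 to 66 for nuclear and 10 to 11 for mitochondrially encoded subunits. Under quantile normalization, 4 mitochondrially encoded slopes passed. That scaling limits changes of the most abundant genes by construction, so it cannot judge these slopes. Its part in the count was not tested. The restriction to libraries alike in intestinal transcripts was not run for KO Ang II minus WT saline, where no WT saline library is alike. The median SE of a subunit difference was 0.29 (log2), which limits the differences these groups could show.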
